A study of Mus musculus with 34 samples.

Results

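The comparison described here sets the response of Bin-2 leukaemia cells to nilotinib against their response to lonafarnib, both measured at the midpoint of treatment. For each gene the change under nilotinib (midpoint minus its own start) had the change under lonafarnib (midpoint minus its own start) taken from it. It used 12 of the 34 arrays of the study, 3 in each of 4 groups: nilotinib midpoint, nilotinib start, lonafarnib midpoint and lonafarnib start. Bin-2 is a line of mouse pre-B acute lymphoblastic leukaemia from a BCR/ABL transgenic mouse of mixed genetic background. All 4 groups were kept over irradiated mouse embryonic fibroblasts in medium with interleukin-3 at 10 ng/ml and 15% fetal calf serum. The nilotinib midpoint cells had received 50 nM nilotinib until day 3 and the lonafarnib midpoint cells 0.25 µM lonafarnib until day 3. Both start groups were taken on day 0, before drug. Viability was 5 to 10% at both midpoints, and only floating or loosely attached cells were harvested. The 3 arrays of a group came from separate plates of this single line. A start sample was a 10-cm dish, whereas a midpoint sample was a 15-cm dish or pooled 10-cm dishes.

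BCR/ABL is the fusion tyrosine kinase of Philadelphia chromosome-positive leukaemia. It signals through STAT5, through RAS and ERK, and through PI3K, which keeps FOXO transcription factors out of the nucleus. Nilotinib blocks the ABL kinase. Lonafarnib blocks farnesyltransferase, the enzyme that places a farnesyl lipid on RAS, RHEB, nuclear lamins and the kinetochore proteins CENP-E and CENP-F. The 2 drugs therefore act on different enzymes, and the comparison asks which transcripts responded unequally to them when few cells were left alive.

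Values are log2 signals. Changes and differences are in log2 units with ± SE, the standard error from limma fitted to the 34 arrays together, and a gene counted as called where its p, adjusted over 19938 genes, was under 0.05. Between the nilotinib and lonafarnib starts limma called 0 genes, where 1085 had an unadjusted p below 0.05, and a fit with a trended robust prior also called 0. The lonafarnib midpoint arrays stood apart in spread. The interquartile range of signals on an array was 3.45 to 3.51 at the nilotinib midpoint, 3.56 to 3.64 at the nilotinib start, 2.92 to 3.26 at the lonafarnib midpoint and 3.40 to 3.49 at the lonafarnib start. Results were therefore also computed after quantile normalization and after each array was scaled to a common median and interquartile range, and values on these scales are given where a call, a direction or a size moved strongly. In bulk RNA, fewer cells of a type and less RNA per cell cannot be told apart, nor can RNA of viable and of dying cells.

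Limma called 295 genes in the difference of the 2 changes, 1.48% of those tested. The nilotinib change lay above the lonafarnib change for 207 of them (1.04% of genes tested) and below it for 88 (0.441%), and 75 differed at least 2-fold. Midpoint arrays, each minus the mean of its start, did not overlap between the drugs for 6664 genes (33.4%). This held for all 295 called genes. Separation at the midpoint thus came with the call, and where described below it is no further support. Under nilotinib alone 692 genes were called (3.47%), of which 372 rose (1.87%) and 320 fell (1.6%). Under lonafarnib alone 3287 were called (16.5%), of which 887 rose (4.45%) and 2400 fell (12%). Set directly against each other, the midpoints differed in 3498 genes (17.5%), of which 2562 were higher (12.8%) and 936 lower (4.69%) under nilotinib. Across genes the changes under both drugs had a Pearson correlation of 0.479, a description over 19938 genes that are not independent replicates. Most of the called genes were called under a single drug, which does not show that the other left them unmoved. Of the 207 higher genes, 141 fell under lonafarnib and were not called under nilotinib, 43 rose under nilotinib and were not called under lonafarnib, and 16 rose under nilotinib and fell under lonafarnib. Another 2 rose under both, 1 fell under both and 4 were called under neither. Of the 88 lower genes, 45 rose under lonafarnib without a nilotinib call, 36 fell under nilotinib without a lonafarnib call, 2 fell under nilotinib and rose under lonafarnib, and 5 were called under neither.

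The split between higher and lower genes depended on the scale. It was 207 against 88 as deposited (70.2% higher), 105 against 107 after quantile normalization (49.5%) and 103 against 229 after scaling to a common interquartile range (31%). The split of lonafarnib calls was 887 up and 2400 down as deposited, 884 and 1007 after quantile normalization, and 1387 and 1932 after scaling. For nilotinib it was 372 up and 320 down as deposited, 382 and 267 after quantile normalization, and 260 and 336 after scaling. Of the 295 genes, 140 were called the same way on all 3 scales, 73 of them higher and 67 lower. The genes that fell under lonafarnib were bright (median start level 7.74) and those that rose were dim (4.39), around a median of 5.35 for all genes. Among the 88 lower genes 27 had means below 5 in all 4 groups, and 18 were olfactory or vomeronasal receptors or small RNAs. With 1 array left out the count lay between 153 and 288. It fell below 200 without replicate 1 (153) or replicate 2 (162) of the nilotinib start, without replicate 1 of the nilotinib midpoint (159) and without replicate 2 of the lonafarnib start (162).

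**Figure D1:**
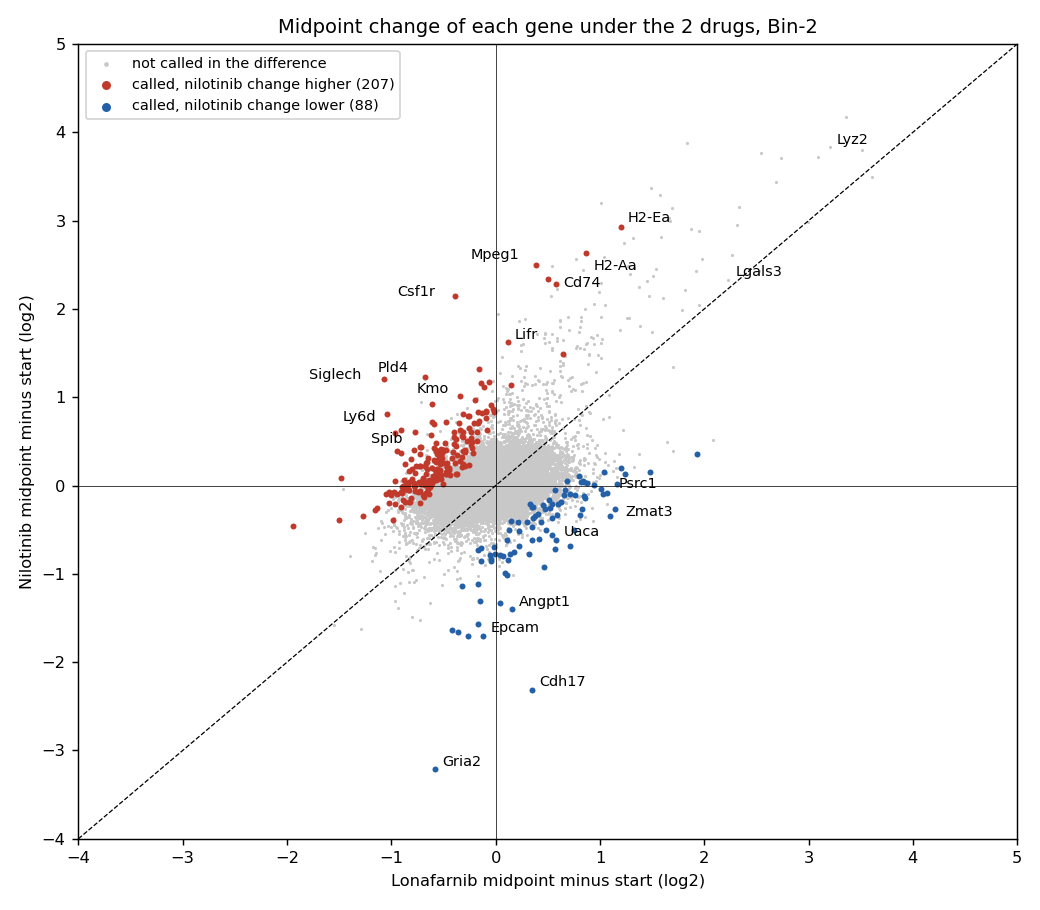
Each point is 1 of 19938 genes, placed by its midpoint minus start change under lonafarnib (x, log2) and under nilotinib (y, log2) in Bin-2. Red points (207) and blue points (88) were called in the difference of the 2 changes, grey points were not, and the dashed line marks equal changes. Lyz2 and Lgals3 lie far up along the line, Csf1r and Siglech above it, and Cdh17 and Gria2 below it.

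**Figure D2:**
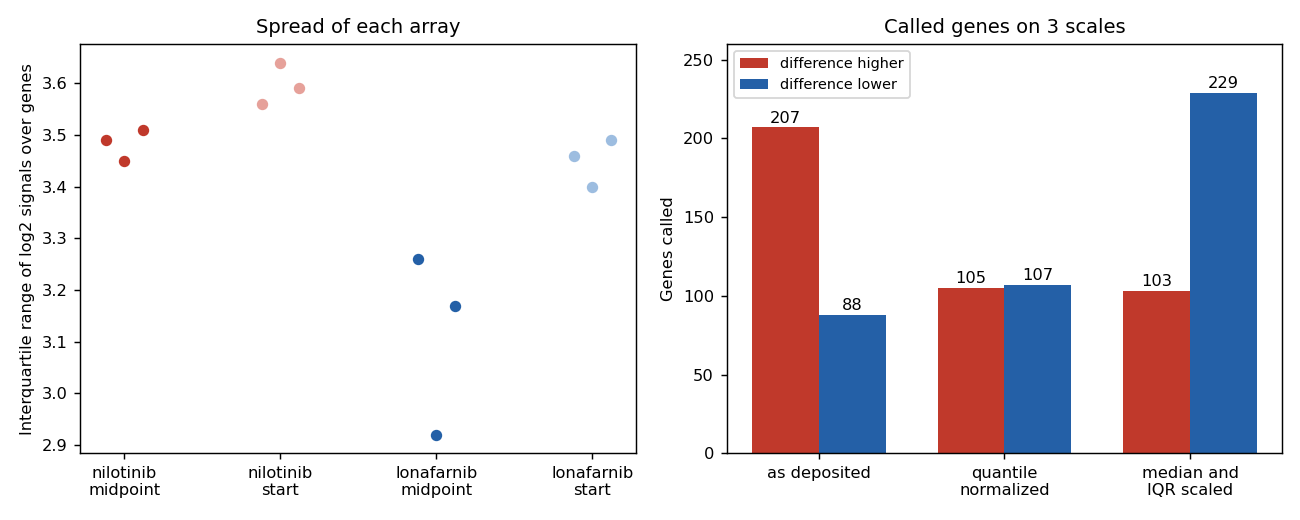
Left: the interquartile range of log2 signals on each of the 12 arrays (points), by group, where the lonafarnib midpoint arrays lie lowest (2.92 to 3.26). Right: the number of genes called higher (red) and lower (blue) in the difference on the deposited values, after quantile normalization and after median and interquartile range scaling, where the split turns from 207 and 88 to 103 and 229.

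Opposite changes were rare. In all, 18 genes (0.0903% of those tested) were called in the difference and changed in opposite directions under the drugs, 16 of them up under nilotinib and down under lonafarnib. After quantile normalization there were 14 (10 and 4) and after scaling 12 (4 and 8). The largest was Siglech, a sialic acid-binding lectin best known from plasmacytoid dendritic cells. It had signals of 9.73, 9.85 and 9.75 at the nilotinib midpoint and 8.53, 8.50 and 8.67 at its start, against 7.65, 7.37 and 7.44 at the lonafarnib midpoint and 8.37, 8.63 and 8.65 at its start. Every nilotinib midpoint array was above every start array, and every lonafarnib midpoint array below. The difference was 2.28 ± 0.19, or 4.85-fold (limma adjusted p = 2.52e-08), and 2.10 to 2.37 over all alternatives.

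Pld4, a nuclease of endolysosomes in dendritic and B cells, measured 8.95, 8.65 and 8.79 at the nilotinib midpoint and 7.54, 7.47 and 7.70 at its start, against 6.89, 6.80 and 6.79 at the lonafarnib midpoint and 7.49, 7.47 and 7.57 at its start. The starts overlapped, and the midpoints lay on either side of them. The difference was 1.91 ± 0.30 (limma adjusted p = 0.000668). Spib, an ETS-family transcription factor of B cells and plasmacytoid dendritic cells, behaved the same way. Its signals were 6.94, 6.80 and 6.90 at the nilotinib midpoint and 6.31, 6.27 and 6.25 at its start, against 5.72, 5.32 and 5.55 at the lonafarnib midpoint and 6.63, 5.98 and 6.30 at its start (difference 1.38 ± 0.19, limma adjusted p = 0.000215). Flt3, a receptor tyrosine kinase of early lymphoid progenitors, rose by 0.69 under nilotinib and fell by 0.59 under lonafarnib, a difference of 1.29 ± 0.18. Ly6d, a surface protein that marks progenitors committed to the B lineage, rose by 0.81 under nilotinib and had a change of -1.04 under lonafarnib. Kmo, which encodes kynurenine 3-monooxygenase of tryptophan breakdown, rose by 0.93 and had a change of -0.61, and the desaturase family gene Fads3 rose by 0.72 and had a change of -0.48. Myl4, a myosin light chain gene, gave 0.72 under nilotinib and -0.61 under lonafarnib, and its call was lost after scaling (limma adjusted p = 0.0591). In the other direction Uaca, a coiled-coil ankyrin repeat protein linked to apoptosis, fell by 0.61 under nilotinib and rose by 0.58 under lonafarnib (difference -1.19 ± 0.23, limma adjusted p = 0.00567).

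The promoter window of Pld4 is shown because it and Kmo hold a PU.1 motif, an ETS-factor sequence. They were looked up with Siglech, Spib and Flt3, other genes of opposite change that have a window. Fads3, Myl4 and Uaca were not looked up singly. The motif searched was GAGGAAGT on both strands, and it was chosen after matches had been seen. The window runs from 250 bases before to 50 bases after the start of the gene (RefSeq, GRCm38.p6, chr12:112760405-112760704, plus strand), and the capitals mark the match.
Pld4: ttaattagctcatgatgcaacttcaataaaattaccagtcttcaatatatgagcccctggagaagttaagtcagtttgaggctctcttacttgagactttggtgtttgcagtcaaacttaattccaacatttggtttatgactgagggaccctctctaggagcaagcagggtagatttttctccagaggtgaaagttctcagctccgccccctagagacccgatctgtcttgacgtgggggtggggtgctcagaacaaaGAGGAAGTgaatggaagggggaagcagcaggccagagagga
The match begins at position 10 after the start. Such a match was present in 3.2% of 32851 promoter windows, in 3.24% of tested genes with a window, in 6.36% of the called higher genes (11 of 173) and in 3.08% of the called lower genes (2 of 65). The windows of Siglech, Spib, Flt3 and Mpeg1 held no match to these letters. A match is a description of the letters and not a measured binding site.

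**Figure D3:**
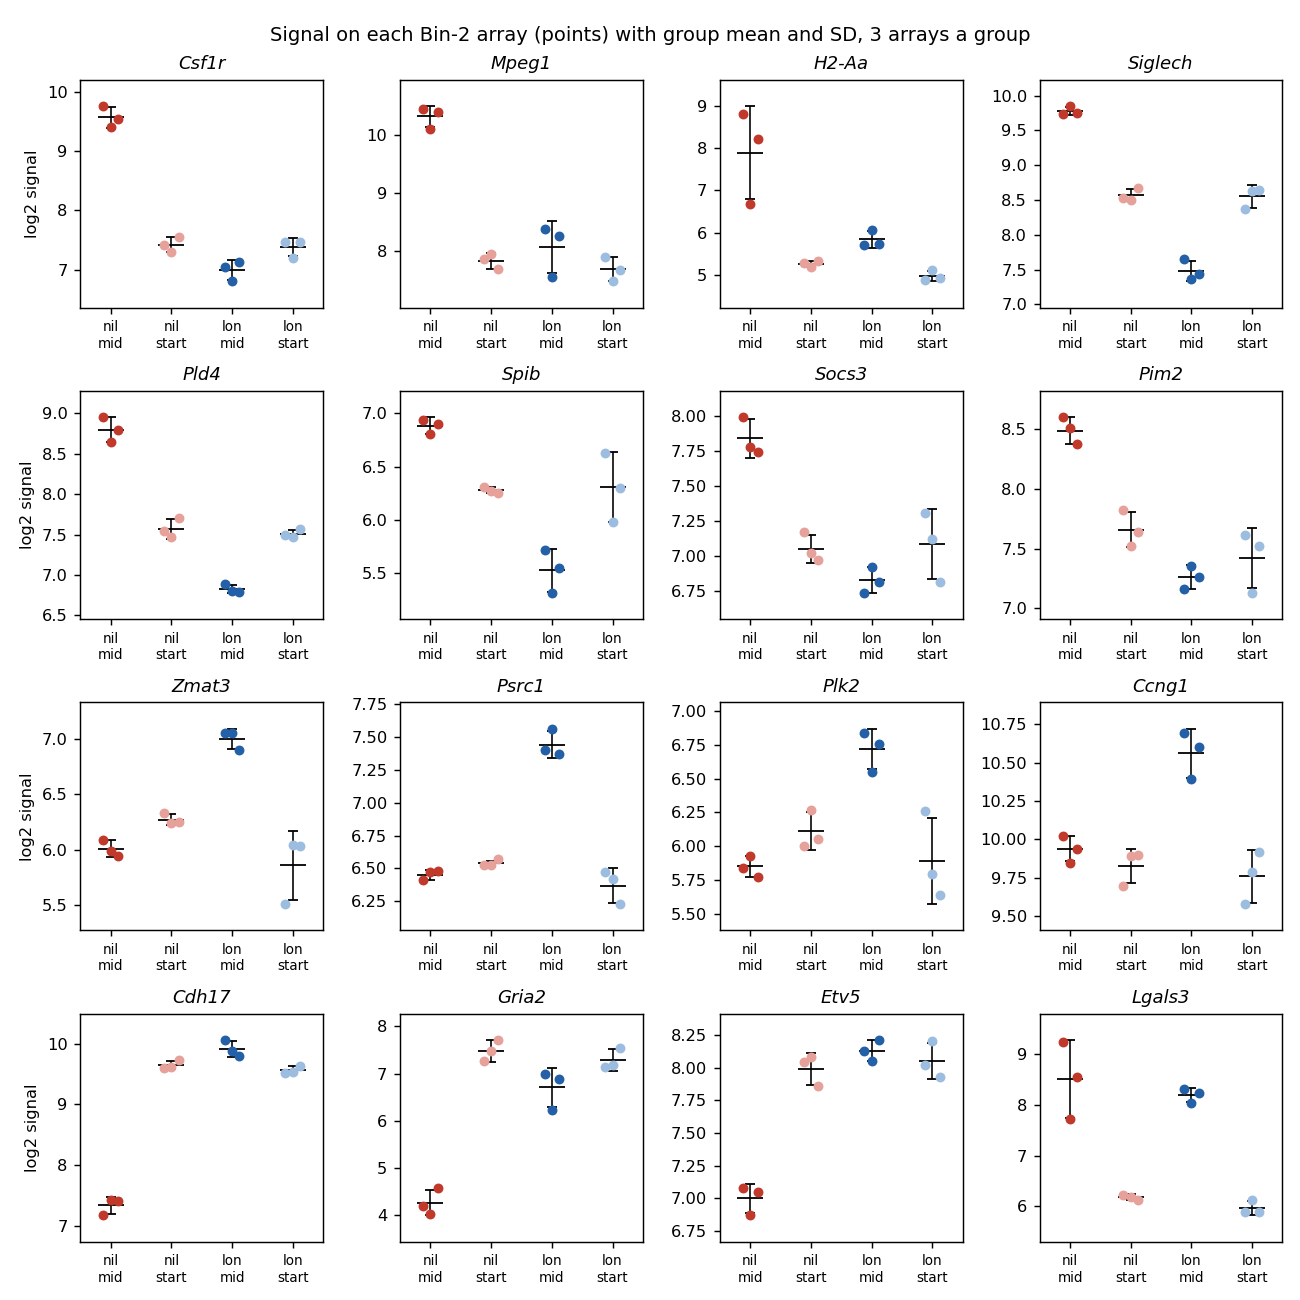
Log2 signal of 16 genes on each Bin-2 array (points, 3 a group) with the group mean and SD, for the nilotinib midpoint, nilotinib start, lonafarnib midpoint and lonafarnib start from left to right in each panel. Siglech, Pld4 and Spib lie on both sides of their starts, the p53 targets Zmat3, Psrc1, Plk2 and Ccng1 are high at the lonafarnib midpoint, Cdh17, Gria2 and Etv5 are low at the nilotinib midpoint, and Lgals3 is high at both midpoints.

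Transcripts that report on kinase signalling moved in a few members of each list. In the list of STAT5 and BCR/ABL output 2 of 12 genes were called higher and 0 lower, where 1.04% and 0.441% of all genes were. The list's median difference was 0.22 as deposited, 0.07 after quantile normalization and -0.04 after scaling, against 0.03 over all genes. Socs3, an inhibitor of cytokine receptor signalling that STAT factors induce, had signals of 7.99, 7.78 and 7.74 at the nilotinib midpoint and 7.17, 7.02 and 6.97 at its start, against 6.74, 6.92 and 6.82 at the lonafarnib midpoint and 7.31, 7.12 and 6.82 at its start. The 3 nilotinib midpoint arrays were the highest of the 12. It differed by 1.04 ± 0.21, or 2.06-fold (limma adjusted p = 0.006). Pim2, a survival kinase also induced by STAT5, measured 8.60, 8.51 and 8.38 at the nilotinib midpoint and 7.82, 7.52 and 7.64 at its start, against 7.16, 7.35 and 7.26 at the lonafarnib midpoint and 7.61, 7.13 and 7.52 at its start. It rose under nilotinib by 0.83 ± 0.11 and was not called under lonafarnib (-0.17 ± 0.11), a difference of 1.00 ± 0.16 (limma adjusted p = 0.000729). Other STAT5 targets were not called: Cish differed by 0.50 (95% interval 0.09 to 0.90, limma adjusted p = 0.219), Pim1 by 0.35 (-0.07 to 0.78) and Socs2 by 0.10 (-0.24 to 0.43). After scaling Pim1 and Socs2 turned to -0.10 and -0.33, neither called.

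The promoter of Socs3 is shown because its window holds a STAT motif, TTCNNNGAA with N for any base, which reads the same on both strands. The window lies at chr11:117969317-117969616 on the minus strand (RefSeq, GRCm38.p6), is written in the direction of transcription, and has the match in capitals.
Socs3: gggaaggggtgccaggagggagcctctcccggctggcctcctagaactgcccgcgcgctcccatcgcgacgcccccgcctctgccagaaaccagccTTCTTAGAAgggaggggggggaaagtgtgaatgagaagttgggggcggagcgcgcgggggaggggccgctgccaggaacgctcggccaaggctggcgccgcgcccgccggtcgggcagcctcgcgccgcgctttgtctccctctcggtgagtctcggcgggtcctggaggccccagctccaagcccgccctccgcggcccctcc
The match begins at position -154. This motif was present in 8.3% of all windows, in 8.99% of tested genes with a window, in 12.7% of the called higher genes (22 of 173) and in 4.62% of the called lower genes (3 of 65). The window of Pim2 held none.

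In the list of ERK feedback and immediate early genes 1 of 19 was called, lower (0.441% of all genes were). That gene was Etv5, an ETS factor kept up by RAS and ERK signalling. It had signals of 7.08, 6.87 and 7.05 at the nilotinib midpoint and 8.04, 8.08 and 7.86 at its start, against 8.13, 8.05 and 8.21 at the lonafarnib midpoint and 8.02, 8.20 and 7.93 at its start. The fall was seen under nilotinib alone (-0.99 ± 0.13, limma adjusted p = 1.55e-05), as lonafarnib gave 0.08 ± 0.13, and the difference was -1.08 ± 0.19 (limma adjusted p = 0.00202). Its relative Etv4 differed by -0.93 and the ERK inhibitor Spry4 by -0.77, with limma adjusted p of 0.0669 and 0.0961. The immediate early genes Fos (1.13), Ier3 (0.99) and Egr1 (0.74) rose under nilotinib, and none of the 3 was called in the difference. Among 19 measured FOXO targets Ccng2, a cyclin that restrains proliferation, was the single called gene (1.04% of all genes were called higher). It fell by 0.66 under lonafarnib and changed by 0.18 ± 0.12 under nilotinib (difference 0.84 ± 0.16, limma adjusted p = 0.00526). Bcl6, a FOXO-induced repressor, differed by 0.59 (95% interval 0.05 to 1.13) and Il7r, the interleukin-7 receptor chain, by 0.60 (0.12 to 1.07), or 0.16 after scaling, and neither was called.

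Abl1, Fnta and Fntb showed no called difference as deposited. Abl1 is the mouse gene, and whether its probeset also reads the BCR/ABL transgene was not tested. Abl1 differed by -0.32 (95% interval -0.58 to -0.05, limma adjusted p = 0.232) as deposited and by -0.69 after scaling (limma adjusted p = 0.0288). Fnta and Fntb, the subunits of farnesyltransferase, differed by 0.23 (-0.17 to 0.62) and -0.15 (-0.52 to 0.23). Rhob, a GTPase that is both farnesylated and geranylgeranylated, differed by 0.12 (-0.25 to 0.49), and by -0.04 after quantile normalization. Of 19 farnesylated proteins 0 were called as deposited (1.48% of all genes were), and 1 after quantile normalization and 2 after scaling were called lower. Of 9 SRC and ABL family kinases 0 were called as deposited, and 2 were called lower after scaling. Lower calls over all genes grew from 88 as deposited to 107 after quantile normalization and 229 after scaling.

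Among 8 measured genes of MHC class II presentation 3 rose under nilotinib (1.87% of all genes did), and 1 rose (4.45%) and 2 fell (12%) under lonafarnib. Of these 8 genes 3 were called higher in the difference and 0 lower, where 1.04% of all genes were called higher. The median difference was 0.96, and it stayed between 0.78 and 0.96 over the 3 scales. H2-Aa, the alpha chain of I-A, had signals of 8.80, 6.67 and 8.21 at the nilotinib midpoint and 5.28, 5.19 and 5.32 at its start, against 5.72, 6.07 and 5.73 at the lonafarnib midpoint and 4.88, 5.11 and 4.93 at its start. The nilotinib midpoint arrays were uneven, with replicate 2 nearest to the lonafarnib arrays. Cd74, the invariant chain that guards the class II groove, measured 8.57, 7.69 and 8.04 at the nilotinib midpoint and 5.59, 5.61 and 6.26 at its start, against 6.51, 6.34 and 6.23 at the lonafarnib midpoint and 5.87, 6.02 and 5.46 at its start. H2-Ea, the alpha chain of I-E and no member of the list, gave 8.34, 6.83 and 7.27 at the nilotinib midpoint and 4.67, 4.48 and 4.52 at its start, against 5.62, 5.71 and 5.48 at the lonafarnib midpoint and 4.45, 4.48 and 4.29 at its start. All 3 were highest on the nilotinib midpoint arrays, without overlap with any other group. Differences were 1.76 ± 0.44 for H2-Aa, 1.71 ± 0.39 for Cd74 and 1.72 ± 0.30 for H2-Ea (limma adjusted p = 0.0343, 0.0209 and 0.00202). The call of H2-Aa was lost after quantile normalization (limma adjusted p = 0.0719). H2-Ea rose under both drugs, by 2.92 under nilotinib and by 1.20 under lonafarnib. H2-Ob, part of the modulator of peptide loading in B cells, differed by 0.91 ± 0.19 (limma adjusted p = 0.0109). It fell by 0.53 under lonafarnib and changed by 0.38 ± 0.14 under nilotinib. H2-Ab1 (1.24) and H2-Eb1 (1.01) had limma adjusted p of 0.0554 and 0.0547, and Ciita, the transactivator of class II genes, differed by -0.28.

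The window of H2-Aa is shown as the start region of this group, with the Y box, CTGATTGG on either strand, in capitals. It lies at chr17:34287774-34288073 on the minus strand (RefSeq, GRCm38.p6) and is written in the direction of transcription.
H2-Aa: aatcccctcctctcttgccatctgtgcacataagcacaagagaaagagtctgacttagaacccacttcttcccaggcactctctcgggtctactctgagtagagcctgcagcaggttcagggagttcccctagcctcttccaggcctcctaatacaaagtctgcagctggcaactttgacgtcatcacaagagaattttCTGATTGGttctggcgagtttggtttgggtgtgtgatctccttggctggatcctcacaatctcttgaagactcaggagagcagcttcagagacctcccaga
The Y box begins at position -51. It was present in 4.1% of all windows, in 5.44% of tested genes with a window, in 5.78% of the called higher genes (10 of 173) and in 12.3% of the called lower genes (8 of 65). The window of H2-Ob held no match.

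The macrophage list rose on average under both drugs, whereas the class II list did so under nilotinib alone. The class II mean was 7.15 at the nilotinib midpoint and 6.18 at its start, against 6.10 and 6.06 for lonafarnib. The mean signal over 22 macrophage genes was 8.68, 7.40 and 8.19 at the nilotinib midpoint and 5.93, 5.90 and 5.57 at its start, against 7.20, 6.84 and 7.10 at the lonafarnib midpoint and 5.90, 5.83 and 5.51 at its start. It was higher at both midpoints than at any start, most at the nilotinib midpoint, where the same replicate 2 was lowest. Under nilotinib 18 of the 22 rose (median change 2.43), where 1.87% of all genes did, and under lonafarnib 10 rose (median 1.02), where 4.45% did. In the difference 2 of 22 were called, both higher (1.04% of all genes were), and the median was 0.89, or 0.85 and 0.80 on the other scales. At least 5 on the log2 scale were 19 of the 22 genes at the nilotinib midpoint and 13 at its start, against 20 at the lonafarnib midpoint and 12 at its start. Csf1r, the receptor for macrophage colony-stimulating factor, had signals of 9.76, 9.40 and 9.54 at the nilotinib midpoint and 7.41, 7.29 and 7.55 at its start, against 7.04, 6.80 and 7.13 at the lonafarnib midpoint and 7.47, 7.20 and 7.47 at its start. It was the largest positive difference (2.54 ± 0.47, or 5.8-fold, limma adjusted p = 0.00373), and its lonafarnib change was -0.39 ± 0.33. Mpeg1, the pore-forming perforin-2 of phagocytes, measured 10.45, 10.11 and 10.40 at the nilotinib midpoint and 7.85, 7.95 and 7.68 at its start, against 8.37, 7.54 and 8.26 at the lonafarnib midpoint and 7.89, 7.47 and 7.67 at its start (difference 2.12 ± 0.52, limma adjusted p = 0.031, and 0.0518 after scaling). Lyz2, the lysozyme of macrophages, rose under both drugs by 3.83 and 3.20, and its difference of 0.63 had a 95% interval of -0.92 to 2.18. It was 0.09 after scaling and -0.63 with the macrophage and mast cell means as covariates, not called in either. Mgl2, a C-type lectin of macrophages and dendritic cells, differed by 1.84 ± 0.47 (limma adjusted p = 0.0395).

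With the macrophage and mast cell means as covariates the difference was 1.79 for Csf1r and 1.28 for Mpeg1, both still called although each belongs to the covariate. It was 2.34 for Siglech, 1.46 for Pld4, 1.41 for Spib, 1.42 for H2-Ea and 1.03 for H2-Ob, which kept their calls. It was 1.20 for H2-Aa, 1.05 for Cd74 and 1.43 for Mgl2, which lost theirs (limma adjusted p = 0.122, 0.0532 and 0.128). The macrophage mean itself rose under both drugs, so this fit cannot separate macrophage RNA from a drug effect. The part of macrophage RNA in these differences was not tested. Some of these calls lay near the threshold and were also lost when 1 array was left out. With each of 12 arrays left out in turn H2-Aa lost its call 10 times (highest limma adjusted p = 0.127), Mpeg1 8 times (0.092), Mgl2 8 times (0.122) and Cd74 5 times (0.0863). The highest value came without replicate 1 of the nilotinib midpoint for H2-Aa, Mgl2 and Cd74, and without replicate 2 of the lonafarnib midpoint for Mpeg1. Csf1r, Siglech, Pld4, Spib, H2-Ea and H2-Ob kept theirs in all 12.

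In the fibroblast, mast cell, granulocyte, T and NK cell, and erythroid and megakaryocyte lists 0 genes were called in the difference as deposited. These lists held 27, 12, 11, 13 and 5 measured genes. Over all genes 1.48% were called, so few or no calls would be met in lists of this size. Of 27 fibroblast genes 9 rose under nilotinib and 12 under lonafarnib, where 1.87% and 4.45% of all genes did. Their mean signal was 5.20 to 5.27 at the nilotinib midpoint and 4.73 to 4.78 at its start, against 5.27 to 5.61 at the lonafarnib midpoint and 4.82 to 4.93 at its start. Col1a1, the collagen chain of fibroblasts, rose by 0.62 under nilotinib and by 1.22 under lonafarnib. Its difference of -0.60 ± 0.18 was not called (limma adjusted p = 0.0945) but was called after quantile normalization (0.0349) and after scaling (0.0196). Of 12 myeloid chemokines and cytokines 10 rose under nilotinib and 7 under lonafarnib (1.87% and 4.45% of all genes did). In the difference 0 of them were called (1.48% of all genes were), at a median of 0.80. Of 28 genes of lysosome and autophagy 13 rose under nilotinib, and 5 rose and 1 fell under lonafarnib, with 0 called in the difference (1.48% of all genes were). Array means of the mast cell, granulocyte, T and NK cell, and erythroid and megakaryocyte lists stayed between 4.10 and 5.25 in all 4 groups. The line is labelled pre-B. Of 30 measured genes of pre-B identity 27 or 28 reached a mean of 5 in each group and 15 to 17 reached 9. A mean of 5 separates little, as the median start level of all genes was 5.35. A mean of 9 was reached by 8 of 22 macrophage genes at the nilotinib midpoint, 5 at the lonafarnib midpoint and 2 at each start. The mean signal of the pre-B genes was 8.71 to 8.79 at the nilotinib midpoint and 8.76 to 8.80 at its start. It was 8.43 to 8.54 at the lonafarnib midpoint and 8.73 to 8.81 at its start. In the difference 2 of the 30 were called, both higher, where 1.04% of all genes were. These were Spib and Bank1, a B cell scaffold protein (0.94 ± 0.24, limma adjusted p = 0.0451, lost on both other scales with 0.0627 and 0.0606). Bank1 also lost its call when any of 10 of the 12 arrays was left out, with the highest limma adjusted p (0.12) without replicate 2 of the lonafarnib start. Rag1, of the V(D)J recombinase, and Pax5, the B-lineage commitment factor, differed by 0.14 (95% interval -0.47 to 0.75) and -0.08 (-0.63 to 0.46), and by -0.17 and -0.39 after scaling.

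The p53 pathway answers DNA damage and other stress by raising a set of target genes. Of 23 measured targets 4 were called in the difference, all lower (0.441% of all genes were). The median difference was -0.15, or -0.16 and -0.31 on the other scales, which called 5 each. Those scales called 107 and 229 of all genes lower, against 88 as deposited. Under lonafarnib 8 rose and 2 fell (4.45% and 12% of all genes did), and under nilotinib 2 rose (1.87%), namely Btg2 (0.80) and Trp53inp1 (0.39). Zmat3, an RNA-binding zinc finger protein that p53 induces, had signals of 6.09, 5.99 and 5.94 at the nilotinib midpoint and 6.33, 6.24 and 6.25 at its start, against 7.05, 7.05 and 6.90 at the lonafarnib midpoint and 5.51, 6.04 and 6.03 at its start. The lonafarnib midpoint arrays were the highest of the 12. It rose by 1.14 ± 0.12 under lonafarnib, changed by -0.26 ± 0.12 under nilotinib and differed by -1.41 ± 0.17 (limma adjusted p = 4.14e-05). Psrc1, a microtubule-binding protein, measured 6.41, 6.47 and 6.48 at the nilotinib midpoint and 6.53, 6.53 and 6.57 at its start, against 7.40, 7.56 and 7.37 at the lonafarnib midpoint and 6.47, 6.42 and 6.23 at its start (difference -1.16 ± 0.19, limma adjusted p = 0.00109). Plk2, a polo-like kinase of the stress response, differed by -1.08 ± 0.24 (limma adjusted p = 0.0181). Ccng1, a cyclin strongly induced by p53, gave 10.02, 9.85 and 9.94 at the nilotinib midpoint and 9.70, 9.89 and 9.90 at its start, against 10.69, 10.39 and 10.60 at the lonafarnib midpoint and 9.58, 9.79 and 9.92 at its start (difference -0.69 ± 0.16, limma adjusted p = 0.0219). Here too the lonafarnib midpoint did not overlap any other group, and the difference was -1.14 after scaling. Further targets rose under lonafarnib without a called difference: the stress sensor Sesn2 (0.96), the death receptors Fas (0.76) and Tnfrsf10b (0.68), and the AKT inhibitor Phlda3 (0.61). Mdm2, Bbc3 and Pmaip1, which encode the p53 ligase and the killers PUMA and NOXA, were called under neither drug. Ccng1 lost its call without 6 of the 12 arrays (highest limma adjusted p = 0.0673, without replicate 1 of the lonafarnib start). Plk2 lost its call without replicate 2 of the nilotinib start (0.0613) and without replicate 2 (0.0557) or 3 (0.0603) of the lonafarnib start.

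The window of Ccng1 is shown because it holds a decamer of the p53 response element, marked in capitals. It lies at chr11:40755237-40755536 on the minus strand (RefSeq, GRCm38.p6) and is written in the direction of transcription.
Ccng1: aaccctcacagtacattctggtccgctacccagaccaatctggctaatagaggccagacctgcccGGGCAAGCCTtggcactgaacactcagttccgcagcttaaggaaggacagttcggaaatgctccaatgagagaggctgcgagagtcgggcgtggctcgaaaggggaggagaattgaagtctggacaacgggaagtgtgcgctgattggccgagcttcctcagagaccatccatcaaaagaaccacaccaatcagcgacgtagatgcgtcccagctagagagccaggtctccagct
The decamer begins at position -185. The pattern searched was RRRCWWGYYY, with R for A or G, W for A or T and Y for C or T. A match to this pattern was present in 8.36% of all windows on either strand, in 8.56% of tested genes with a window, in 10.4% of the called higher genes (18 of 173) and in 13.8% of the called lower genes (9 of 65). The windows of Psrc1 and Plk2 held none.

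Of 30 measured genes of mitosis 2 were called in the difference, both lower (0.441% of all genes were). The differences of the 30 ran from -0.78 to -0.01, with a median of -0.31. On the other scales the median was -0.44 and -0.63, with 7 and 12 called, all lower. Lower calls over all genes also grew there, from 88 as deposited to 107 after quantile normalization and 229 after scaling. The median over all genes was -0.009 and -0.021 on these 2 scales. Tpx2, an activator of Aurora A on the spindle, differed by -0.71 ± 0.18 and Kif2c, a kinesin that takes apart microtubules at the centromere, by -0.60 ± 0.14 (limma adjusted p = 0.0384 and 0.0207), and by -1.04 and -0.91 after scaling. Kif2c had signals of 8.28, 8.50 and 8.40 at the nilotinib midpoint and 8.64, 8.62 and 8.66 at its start, against 9.04, 8.83 and 8.97 at the lonafarnib midpoint and 8.64, 8.61 and 8.54 at its start. Under nilotinib 4 members fell (1.6% of all genes did), Hmmr (-0.67), Ube2c (-0.61), Plk1 (-0.46) and Ndc80 (-0.41). Under lonafarnib Kif2c (0.35) and Cenpf (0.47), which encodes a farnesylated kinetochore protein, rose. With single arrays left out Tpx2 lost its call 11 of 12 times and Kif2c 4 times, each with its highest limma adjusted p (0.107 and 0.0816) without replicate 1 of the nilotinib midpoint. With the macrophage and mast cell covariates Tpx2 (limma adjusted p = 0.0605) and Kif2c (0.089) lost their calls, as did Bok (0.067) and Mycn (0.143), described next. In the BCL2 family 1 of 14 genes was called, lower (0.441% of all genes were). That gene was Bok, a BAX-like effector. It fell by 0.83 under nilotinib and differed by -0.78 ± 0.20 (limma adjusted p = 0.0469), and it lost its call without 9 of the 12 arrays (highest 0.14, without replicate 3 of the lonafarnib start). Mcl1 differed by 0.43 (95% interval 0.00 to 0.86) and Bcl2l11, which encodes the killer BIM, by 0.35 (-0.01 to 0.71). After scaling they differed by 0.03 and 0.13. Myc differed by -0.22 (-0.66 to 0.22), or by -0.67 after scaling, and was not called. Its relative Mycn fell by 1.31 under nilotinib and differed by -1.17 ± 0.30 (limma adjusted p = 0.0443), a call lost without 10 of the 12 arrays (highest 0.123, without replicate 2 of the lonafarnib start).

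No gene of cholesterol synthesis, the respiratory chain or DNA replication was called in the difference, where 1.48% of all genes were. All 20 measured genes of cholesterol synthesis fell under lonafarnib (median -0.70) and 11 fell under nilotinib (median -0.52). Of all genes 12% fell under lonafarnib and 1.6% under nilotinib. After quantile normalization 14 and after scaling 15 of the 20 fell under lonafarnib. Insig1, the sterol sensor that holds SREBP in the endoplasmic reticulum, had signals of 9.0, 9.20 and 9.06 at the nilotinib midpoint and 9.71, 9.78 and 9.87 at its start, against 8.60, 8.66 and 8.32 at the lonafarnib midpoint and 9.66, 9.72 and 9.67 at its start. Both midpoints lay below their starts, and the difference of 0.45 ± 0.17 was not called (limma adjusted p = 0.195). The median difference of the list was 0.20 as deposited, 0.08 after quantile normalization and 0.00 after scaling. Of 33 genes of the respiratory chain and ATP synthase 24 fell under lonafarnib and 0 under nilotinib, and of 32 genes of DNA replication and nucleotide supply 19 fell under lonafarnib and 1 under nilotinib. These lonafarnib counts were 5 and 7 after quantile normalization and 6 and 8 after scaling. Median differences of the 2 lists were 0.30 and 0.26 as deposited, 0.16 and 0.14 after quantile normalization, and 0.02 and -0.03 after scaling. Single members of other lists were called: Vegfa, the endothelial growth factor (0.86 ± 0.18, lost after scaling with a limma adjusted p of 0.0581), Xaf1, an interferon-induced antagonist of XIAP (0.90 ± 0.20), and Tnfaip3, the NF-kB inhibitor A20 (-0.58 ± 0.14). Leaving out replicate 1 (limma adjusted p = 0.051) or 2 (0.0548) of the nilotinib start or replicate 2 of the lonafarnib start (0.0616) ended the Xaf1 call, as did the macrophage and mast cell covariates (0.0561), and leaving out any of 9 of the 12 arrays the Tnfaip3 call (highest 0.0968, without replicate 2 of the nilotinib start).

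**Figure D4:**
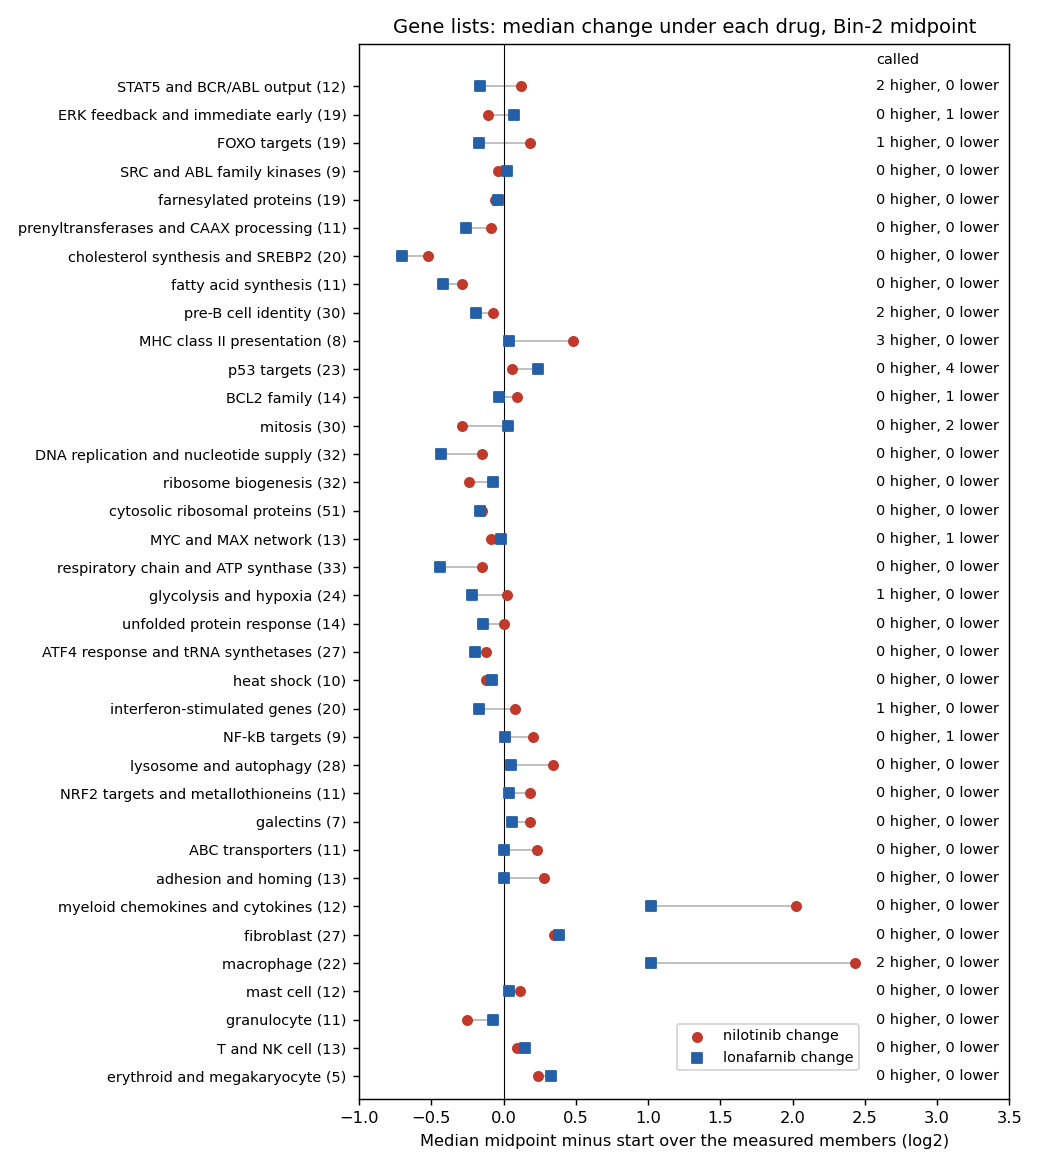
Median midpoint minus start change (x, log2) over the measured members of each of 36 gene lists in Bin-2 under nilotinib (red circles) and lonafarnib (blue squares), with the number of members measured in parentheses and the number called higher and lower in the difference at the right. Macrophage genes and myeloid chemokines lie far to the right, further under nilotinib (2.43 and 2.02) than under lonafarnib (1.02 and 1.02), and p53 targets and mitosis genes lie further right under lonafarnib.

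Of the 12 genes of largest negative difference, 9 fell under nilotinib and were not called under lonafarnib. Cdh17, a cadherin of the intestine and of B-cell progenitors, had signals of 7.17, 7.43 and 7.41 at the nilotinib midpoint and 9.60, 9.62 and 9.73 at its start, against 10.06, 9.88 and 9.80 at the lonafarnib midpoint and 9.52, 9.54 and 9.63 at its start. The difference was -2.66 ± 0.40, or 6.32-fold (limma adjusted p = 0.000406). Gria2, a subunit of AMPA-type glutamate receptors, measured 4.19, 4.04 and 4.57 at the nilotinib midpoint and 7.26, 7.47 and 7.71 at its start, against 7.0, 6.23 and 6.89 at the lonafarnib midpoint and 7.13, 7.19 and 7.54 at its start (difference -2.64 ± 0.40, limma adjusted p = 0.000549). In both genes the nilotinib midpoint arrays were far below all 9 others. Epcam, an epithelial adhesion molecule, gave 4.88, 5.36 and 5.62 at the nilotinib midpoint and 6.98, 6.80 and 7.19 at its start, against 6.76, 6.65 and 6.78 at the lonafarnib midpoint and 6.77, 6.83 and 6.95 at its start (difference -1.58 ± 0.31, limma adjusted p = 0.00539). Angpt1, a ligand of the TIE2 receptor, fell by 1.40 under nilotinib and differed by -1.56 ± 0.25. The LIM protein gene Crip1, the ribonuclease family gene Rnase12, the sodium pump subunit gene Atp1b1, the gene Tedc1 of the centriolar tubulin complex, and ccdc198 fell by 1.64, 1.66, 1.57, 1.33 and 1.70 under nilotinib, with differences of -1.22, -1.30, -1.40, -1.37 and -1.43. Rnase12 lost its call with the macrophage and mast cell covariates (limma adjusted p = 0.0532). Prrg4, a membrane protein with a Gla domain, rose by 0.72 under lonafarnib and differed by -1.40 ± 0.29. Its call was lost when the fit held the 12 arrays alone (limma adjusted p = 0.0587). That fit ended 6 of the 44 named calls. The others were H2-Aa (limma adjusted p = 0.12), Bok (0.127), Mgl2 (0.0786), Ccng1 (0.0623) and Tpx2 (0.0538). Among positive differences outside the lists, Lifr, the receptor for leukaemia inhibitory factor, rose under nilotinib alone. Its signals were 6.45, 6.38 and 6.66 at the nilotinib midpoint and 4.99, 4.98 and 4.65 at its start, against 5.02, 4.98 and 4.71 at the lonafarnib midpoint and 4.75, 4.91 and 4.71 at its start (difference 1.51 ± 0.19, limma adjusted p = 5.18e-05). Emp3, a tetraspan membrane protein, fell by 0.91 under lonafarnib and differed by 1.54 ± 0.26.

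Lgals3, which encodes the sugar-binding protein galectin-3, rose under both drugs. Its signals were 9.25, 7.72 and 8.55 at the nilotinib midpoint and 6.23, 6.18 and 6.12 at its start, against 8.31, 8.04 and 8.24 at the lonafarnib midpoint and 5.89, 6.12 and 5.88 at its start. The rise was 2.33 ± 0.35 under nilotinib and 2.23 ± 0.35 under lonafarnib. The difference of 0.10 had a 95% interval of -0.90 to 1.10 (limma adjusted p = 0.963), so differences within that interval are not excluded. It was -0.23 after scaling, and -0.82 with the macrophage and mast cell covariates (limma adjusted p = 0.115). As for the macrophage mean, replicate 2 was the lowest nilotinib midpoint array, and the part of macrophage RNA was not tested. Cpa3, a protease of mast cell granules, fell by 0.98 under lonafarnib and differed by 0.28 (-0.47 to 1.02).

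The same difference of changes was computed in 8093, a BCR/ABL line on the inbred C57Bl/6J background, from another 12 arrays. Doses and days differed there (20 nM nilotinib to day 3 and 1 µM lonafarnib to day 4), as did viability at the lonafarnib midpoint (20%), and it was the nilotinib midpoint arrays that were compressed, with a mean interquartile range of 2.91. Line and dose cannot be told apart. Limma called 5334 genes in 8093 (26.8%), 1832 of them higher (9.19%) and 3502 lower (17.6%). Of the 207 genes higher in Bin-2, 33 were called higher, 69 lower and 105 not called in 8093, and of the 88 lower genes 35 were called lower, 13 higher and 40 not called. Across genes the 2 differences had a Pearson correlation of -0.056, given as a description. The difference between the lines was called for 4055 genes (20.3%), of which 3019 were higher (15.1%) and 1036 lower (5.2%) as deposited and 1627 and 1246 after quantile normalization. It was called for 152 of the 207 and for 41 of the 88. The line difference contains the Bin-2 difference by which these genes were picked, which favours such calls in advance. This holds also for genes called in opposite directions in the 2 lines. Cdh17 (-2.66 in Bin-2 and -3.20 in 8093), Gria2 (-2.64 and -2.43), Epcam (-1.58 and -2.47), Etv5 (-1.08 and -1.33), Psrc1 (-1.16 and -1.89) and Csf1r (2.54 and 2.49) were called the same way in both lines. Siglech (2.28 in Bin-2 and -1.85 in 8093), Spib (1.38 and -0.90), Flt3 (1.29 and -1.35) and Pim2 (1.00 and -1.45) were called in opposite directions, and for each of these 4 the line difference was called (limma adjusted p = 5.17e-11, 2.66e-06, 1.87e-07 and 4.41e-08).

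**Figure D5:**
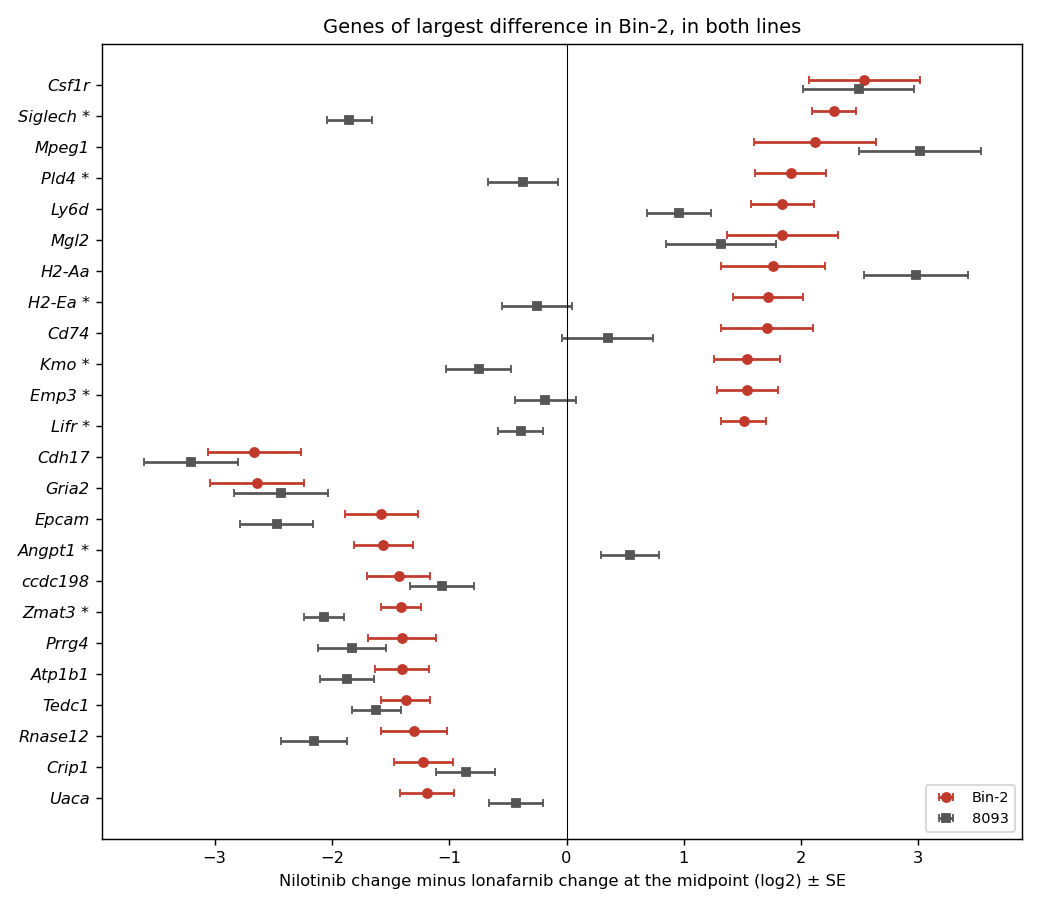
Nilotinib change minus lonafarnib change at the midpoint (x, log2, ± SE) in Bin-2 (red circles) and in 8093 (grey squares) for the 12 genes of largest positive and the 12 of largest negative difference in Bin-2, where an asterisk marks a called difference between the lines. Siglech lies at 2.28 in Bin-2 and -1.85 in 8093, and Cdh17 and Gria2 lie near each other in both lines.

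At the end of treatment, day 21 under nilotinib and day 30 under lonafarnib, when about 90% of cells were viable, the difference of changes from the same start arrays was called for 1896 genes (9.51%), 927 higher (4.65%) and 969 lower (4.86%). Since both comparisons use the same starts, their values are set side by side. Csf1r was 2.54 at the midpoint and 3.21 at the end, Siglech 2.28 and 1.75, H2-Aa 1.76 and 3.70, and Gria2 -2.64 and -5.64, each called at both times by limma. Cdh17 was -2.66 at the midpoint and 1.34 at the end (limma adjusted p = 0.0295), and Spib was 1.38 and -0.73 (limma adjusted p = 0.0118). Pld4 (1.91 and 0.03), Zmat3 (-1.41 and 0.12), Psrc1 (-1.16 and 0.44) and Socs3 (1.04 and -0.03) were called at the midpoint and not at the end (limma adjusted p at the end between 0.165 and 0.969). Whether a difference itself differed between the midpoint and the end was not tested.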

How the data were processed

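Expression was measured on Affymetrix Mouse Gene 1.0 ST arrays, from Trizol RNA and biotinylated cRNA, per the labels. The deposited values are log2 signals per probeset that the authors had already normalized, which was read from their range of 1.02 to 14.4. Partek is named in the submitters' processing notes. How probes were background-corrected, normalized and summarized is not given in the sources used here. Lonafarnib doses are given in µM in the treatment protocol and in mM in the design text, and µM is printed.

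Of 35557 probesets, 21789 carried 1 gene symbol in the platform annotation, 1621 several and 12147 none. For 999 genes with more than 1 probeset the brightest probeset on average was kept, which gave 19938 genes. Limma 3.58.1 in R 4.3.3 fitted 12 group means over 34 arrays (22 residual degrees of freedom), with moderated two-sided p adjusted by Benjamini-Hochberg over all genes. The number of arrays limits the precision, and p-values measure the spread between plates. The fit was tested on simulated data in which 200 of 19938 genes were given a known difference of changes. It recovered 16.4% of 1.5-fold, 67.2% of 2-fold and 98.5% of 4-fold differences, with 13 false calls. Differences of 1.5-fold would thus mostly go uncalled.

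Genes named were the 12 of largest difference each way and 8 of opposite change each way (called, without overlap at the midpoint, not all below 5), up to 4 called members each way of 36 lists, and 20 fixed genes, of which 18 are analysed here. Members of lists given as examples beside these, H2-Ea as a class II gene, and the motifs were chosen after values were seen. The comparison and lists were chosen with earlier results of these data known. Promoter windows came from RefSeq (50 of 62 named genes). Replicate numbers did not pair the samples: midpoint and start deviations of the same number correlated at 0.05, -0.08 and -0.17 under nilotinib and at -0.21, 0.04 and 0.20 under lonafarnib over 8679 genes. Alternatives covered the scale, the arrays fitted, the prior, dim genes, probesets, weights, covariates, a replicate block and each array left out.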

Additional observations from a re-analysis of the deposited data

Results flagged for a closer look

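Of the 24 genes of largest difference in Bin-2, 8 differed between the lines by the test of the line difference itself (the difference of changes in Bin-2 minus the same in 8093, limma). Over all genes 20.3% did. The 24 were picked by the Bin-2 difference, which is part of this test. Groups held 3 arrays and were not searched for single outlying arrays. The line difference was 4.13 ± 0.27 for Siglech, 2.29 ± 0.40 for Kmo, 2.28 ± 0.42 for Pld4, 1.97 ± 0.43 for H2-Ea, 1.90 ± 0.27 for Lifr, 1.72 ± 0.37 for Emp3, -2.10 ± 0.35 for Angpt1 and 0.66 ± 0.24 for Zmat3, with limma adjusted p between 5.17e-11 and 0.0497.

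Siglech had signals of 4.76, 5.37 and 5.07 at the nilotinib midpoint of 8093 and 5.85, 6.00 and 6.30 at its start, against 6.68, 6.46 and 6.48 at the lonafarnib midpoint and 5.60, 5.77 and 5.65 at its start, an order opposite to that in Bin-2. H2-Ea stayed low in 8093, with group means of 4.15, 4.32, 4.11 and 4.03 in the same order of groups, all below 5. Lifr also stayed between 4.13 and 4.74 in its 8093 group means. Zmat3 was lower under nilotinib than under lonafarnib in both lines (-1.41 in Bin-2 and -2.07 in 8093). In 8093 it averaged 6.20 ± 0.08 at the nilotinib midpoint and 7.42 ± 0.15 at its start, against 8.24 ± 0.06 at the lonafarnib midpoint and 7.39 ± 0.11 at its start (SD, n = 3 arrays each). Doses and genetic background differed between the lines, and the part of each was not tested.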

How the results depend on the processing

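The count of 295 genes called in the difference was 632 without dim genes and 887 with array weights. It was 3498 when the midpoints were compared directly, and 140 when the call had to hold on all 3 scales, an alternative chosen after seeing the data. With 1 array left out it ran from 153 to 288. The nilotinib count of 692 was 1809 with array weights, 39 with the fibroblast covariate and 34 with the macrophage and mast cell covariates. With 1 array left out it ran from 342 to 745, and it was 342 without replicate 1 of the midpoint and 422 and 438 without replicate 2 and 3 of the start. The lonafarnib count of 3287 was 1891 after quantile normalization, 122 with the fibroblast covariate and 1103 with the macrophage and mast cell covariates. It ran from 1930 (without replicate 2 of the midpoint) to 3302. The count of 18 genes with opposite changes was 36 without dim genes, 50 with weights and 1 with either covariate fit, and ran from 10 to 14 with 1 array left out. The causes of these shifts were not tested. In the replicate block, which gave each course and replicate number a term, 188 genes were called in the difference. Whether the numbers pair the samples is not settled. In that fit 11 of the 44 named called genes lost their call: H2-Aa, Cd74, Mgl2, Mpeg1, Bank1, Ccng1, Bok, Tpx2, Kif2c, Mycn and Tnfaip3. The other alternatives kept the gene counts given above within 1.5 times, and 0 named genes reversed a call. Over 44 named called genes 33 to 44 kept their call in any single alternative.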
